A study of Homo sapiens with 16 samples.

Results

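The 10 genes examined had lower counts in PC3 spheroids after MED12 knockdown when each siMED12 library was set against the siCtrl library of the same replicate number. They were AQP3, PRSS35, BCL6, FBXO2, PLAT, CALB1, YPEL5, FAM117A, SERPINE2 and LINC02582, which is 10 of the 20 genes past the threshold in that paired contrast, 10566 genes tested and 62703 genes counted. The paired PC3 values therefore chose the genes and are given below as a description, without a test. What was tested is the level and the siMED12 effect of these genes in LNCaP and 22Rv1, and their level in the 1 PC3 siCtrl library that the paired contrast did not use.

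The series holds 16 BRB-seq libraries, in which the 3′ ends of polyadenylated transcripts are counted, from spheroids of 3 human prostate cancer cell lines. LNCaP and 22Rv1 are androgen-responsive lines and PC3 is a line that grows without androgen signalling. In each line, cells were transfected with 25 pmol of siRNA, either a non-targeting pool (siCtrl) or one that targets MED12 (siMED12), and spent 3 days in 2D culture and then 4 days as spheroids. The 6 groups were siCtrl in LNCaP, 22Rv1 and PC3 with 3 libraries each, siMED12 in LNCaP with 3 libraries, and siMED12 in 22Rv1 and in PC3 with 2 libraries each, numbered 1 and 3. All groups shared the transfection and the spheroid culture, and no untransfected cells or second siRNA pool were examined. The study's methods describe its experiments in general as biological replicates, but no label says how the replicates of these libraries were made, so that p-values measure the spread between these libraries.

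MED12 is a subunit of the kinase module of Mediator, the complex that connects transcription factors with RNA polymerase II. The 10 genes belong to no single pathway. PLAT encodes tissue plasminogen activator, a secreted protease that turns plasminogen into plasmin, and SERPINE2 encodes protease nexin-1, a serpin that inhibits thrombin and plasminogen activators. PRSS35 encodes a member of the serine protease family, AQP3 a membrane channel for water and glycerol, and CALB1 the calcium buffer calbindin. BCL6 encodes a transcriptional repressor that recruits corepressors such as NCOR1 and BCOR. FBXO2 encodes the F-box protein of an SCF ubiquitin ligase that recognises sugar chains on glycoproteins, YPEL5 encodes a Yippee-like protein that binds the CTLH ubiquitin ligase, and LINC02582 is a long non-coding RNA.

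On GRCh38, AQP3 (ENSG00000165272) covers positions 33441156 to 33447596 of chromosome 9 on the minus strand, and PRSS35 (ENSG00000146250) covers 83512534 to 83525704 of chromosome 6 on the plus strand. BCL6 (ENSG00000113916) covers 187721377 to 187745725 of chromosome 3 and FBXO2 (ENSG00000116661) covers 11637018 to 11655785 of chromosome 1, both on the minus strand. On chromosome 2, YPEL5 (ENSG00000119801) covers 30146941 to 30160533 on the plus strand and SERPINE2 (ENSG00000135919) covers 223975045 to 224039318 on the minus strand. FAM117A (ENSG00000121104) covers 49710332 to 49789180 of chromosome 17 on the minus strand, and LINC02582 (ENSG00000261780) covers 73324941 to 73349879 of chromosome 18 on the plus strand. The identifiers of PLAT and CALB1 are ENSG00000104368 and ENSG00000104327. At 3 of the 10 genes the span overlaps other annotated genes, namely 4 genes at BCL6, KAT7 and 1 other gene at FAM117A, and FBXO44 and 1 other gene at FBXO2. No exon of an overlapping gene reached the 2000 bp at the 3′ end of any of the 10 genes, where a 3′ tag would fall.

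RefSeq promoter windows, 250 bases before to 50 bases after an annotated start, were matched by symbol for 7 of the 10 genes, with 10 windows in all. The windows were searched on both strands for a TATA box (TATAAA), the E-box that MYC and MAX bind (CACGTG), an AP-1 element (TGACTCA), a FOXO element (GTAAACA) and a GC box (GGGCGG). The 3 windows shown are the ones of AQP3, which had the lowest paired PC3 ratio, of SERPINE2, which was the 1 window with the E-box, and of BCL6, which was the 1 window with the AP-1 element. They lie on the minus strand of GRCh38.p14 at chr9:33447544-33447843, chr2:224031429-224031728 and chr3:187736452-187736751, are printed 5′ to 3′, and have motif letters in capitals.
AQP3: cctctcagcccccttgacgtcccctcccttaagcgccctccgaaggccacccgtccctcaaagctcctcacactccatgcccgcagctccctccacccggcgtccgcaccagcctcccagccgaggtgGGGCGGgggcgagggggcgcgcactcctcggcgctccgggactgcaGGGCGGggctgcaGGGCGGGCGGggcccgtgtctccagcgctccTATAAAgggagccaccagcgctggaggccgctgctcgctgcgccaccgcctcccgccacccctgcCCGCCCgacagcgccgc
SERPINE2: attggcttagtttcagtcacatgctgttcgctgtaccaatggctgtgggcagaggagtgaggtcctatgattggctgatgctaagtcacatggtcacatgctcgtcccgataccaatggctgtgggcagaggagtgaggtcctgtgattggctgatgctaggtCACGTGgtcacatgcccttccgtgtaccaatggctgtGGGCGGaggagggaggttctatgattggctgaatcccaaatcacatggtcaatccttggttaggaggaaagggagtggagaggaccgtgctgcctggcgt
BCL6: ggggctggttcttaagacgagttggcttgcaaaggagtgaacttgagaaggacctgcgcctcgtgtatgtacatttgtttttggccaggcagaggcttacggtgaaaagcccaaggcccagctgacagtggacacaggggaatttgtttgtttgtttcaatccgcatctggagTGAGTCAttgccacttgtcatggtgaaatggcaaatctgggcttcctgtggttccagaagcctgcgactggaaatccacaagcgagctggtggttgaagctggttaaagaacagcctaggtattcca
The AQP3 window held a TATA box and 5 GC boxes, of which 2 overlapped. In SERPINE2, the capitals mark the E-box and 1 GC box, and in BCL6 the AP-1 element on the opposite strand. A TATA box was found in 2 of the 10 windows against 11.5% of 35116 RefSeq windows of the same length, the E-box in 1 against 7.26%, the AP-1 element in 1 against 4.95%, the FOXO element in 0 against 3.42% and a GC box in 7 against 45%. No motif of this set was shared by all 10 windows. These matches are letters in a window and do not show binding.

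Total counts ran from 479118 in PC3 siMED12 replicate 3 to 993807, so that 1 count was worth 1.05 to 2.07 CPM, the count scaled to a common library size. MED12 itself was counted only 5 to 22 times per library. Its level was 9.94, 12.9 and 11.7 CPM in LNCaP siCtrl against 6.99, 6.67 and 10.3 CPM in siMED12, and 23.4, 16.7 and 19.2 CPM in 22Rv1 siCtrl against 7.42 and 8.98 CPM in siMED12. In PC3 it was 28.4, 8.41 and 18.8 CPM in siCtrl replicates 1, 2 and 3 and 15.8 and 14.5 CPM in siMED12 replicates 1 and 3. The library labelled PC3 siCtrl replicate 2 thus had a lower MED12 value than both PC3 siMED12 libraries, from 8 counts. Its exact 95% Poisson interval was 3.45 to 15.8 counts, or 3.63 to 16.6 CPM. The intervals of PC3 siMED12 replicates 1 and 3 were 8.18 to 27.6 and 5.84 to 29.9 CPM. These intervals cover counting error only and overlap, so that the order of siCtrl replicate 2 and the siMED12 libraries is not settled. Among the siCtrl libraries, the interval of replicate 1, 17.8 to 43 CPM, did not overlap that of replicate 2. The interval of replicate 3, 10 to 32.1 CPM, did. The study reports a highly efficient MED12 knockdown in its spheroids. The summed level of 12 luminal markers was 4916 to 7387 CPM in LNCaP, 854 to 1123 CPM in 22Rv1 and 123 to 284 CPM in PC3, and that of 12 PC3 markers was 2995 to 3578 CPM in PC3 and 69.4 to 339 CPM in the other lines. PC3 transcripts in other libraries were measured with 7 genes. These were at over 100 CPM in PC3 siCtrl and at most 1 CPM in the mean siCtrl level of each other line. 22Rv1 siMED12 replicate 3 held 4.88% of the PC3 level of these genes, and every other 22Rv1 or LNCaP library at most 0.831%. The choice of genes keeps the siCtrl shares of 22Rv1 and LNCaP low, so that these shares are no measure of carry-over free of that choice.

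In PC3, the 10 genes fell into 1 pattern over the 5 libraries. All 10 were highest in siCtrl replicate 1, as 22.1% of all tested genes were, intermediate in siCtrl replicate 3 and lowest of the siCtrl libraries in the library labelled siCtrl replicate 2, an order that 18.1% of all tested genes had. For 8 of the 10 genes, that siCtrl replicate 2 was also below both siMED12 libraries, as it was for 27.3% of all tested genes. The MED12 value was also lowest in that library, but within counting error of the siMED12 libraries. Since the paired values chose the genes, these counts describe them and are no result.

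**Figure D1:**
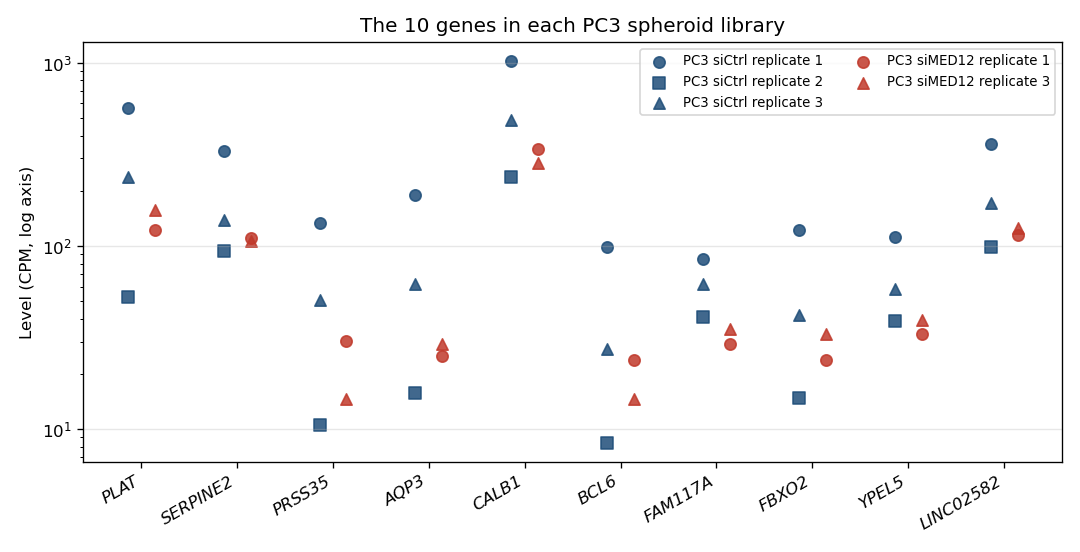
Level of each of the 10 genes (x axis) in CPM on a log axis (y axis) in the 5 PC3 libraries, with 1 point per library, blue for siCtrl and red for siMED12. The siCtrl replicate 1 point is the highest for all 10 genes, and the siCtrl replicate 2 point lies below both siMED12 points for 8 of them.

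Among the genes of the protease family and of a protease inhibitor, PLAT was at 562, 52.6 and 238 CPM in siCtrl replicates 1, 2 and 3. It was at 123 and 158 CPM in siMED12 replicates 1 and 3. The spread among siCtrl libraries was 10.7-fold, and both siMED12 libraries lay inside it. SERPINE2 was at 329, 93.6 and 139 CPM in siCtrl and at 111 and 106 CPM in siMED12, a siCtrl spread of 3.52-fold that again held both siMED12 values. PRSS35 was at 133, 10.5 and 50.6 CPM in siCtrl and at 30.3 and 14.5 CPM in siMED12, with the widest siCtrl spread of the 10 genes at 12.6-fold.

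AQP3, the channel gene, was at 188, 15.8 and 62.1 CPM in siCtrl and at 25.1 and 29.0 CPM in siMED12. Its siMED12 to siCtrl ratio of 0.133 in replicate 1 was the lowest of the 10 genes, while the 15 counts of the library labelled siCtrl replicate 2 put that library below both siMED12 libraries. CALB1, the calcium buffer, was at 1014, 237 and 487 CPM in siCtrl and at 336 and 284 CPM in siMED12. It had at least 137 counts in every PC3 library.

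BCL6, the transcriptional repressor, was at 98.0, 8.41 and 27.5 CPM in siCtrl and at 23.7 and 14.5 CPM in siMED12. Its siCtrl libraries spread 11.7-fold and the lowest of them rested on 8 counts. FAM117A was at 85.1, 41.0 and 62.1 CPM in siCtrl and at 29.0 and 35.3 CPM in siMED12. It was the 1 gene of the 10 whose siMED12 libraries were both below every siCtrl library, a separation that 11.9% of all tested genes had, and its siCtrl spread of 2.08-fold was the smallest.

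Of the genes linked to ubiquitin ligases, FBXO2 was at 121, 14.7 and 41.9 CPM in siCtrl and at 23.7 and 33.2 CPM in siMED12. YPEL5 was at 112, 38.9 and 57.8 CPM in siCtrl and at 33.0 and 39.4 CPM in siMED12, so that its siCtrl replicate 2 fell between the siMED12 libraries. The non-coding LINC02582 was at 357, 98.8 and 172 CPM in siCtrl and at 115 and 124 CPM in siMED12. As for most of the 10 genes, the siMED12 libraries of LINC02582 were close together, and the siCtrl libraries were far apart.

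Over the 10 genes, the ratio of siMED12 to siCtrl ran from 0.133 to 0.341 in replicate 1 with a median of 0.268, and from 0.287 to 0.792 in replicate 3 with a median of 0.622. The medians over all tested genes were 0.982 and 0.974. The ratio of siCtrl replicate 1 to the library labelled siCtrl replicate 2 had a median of 6.26 over the 10 genes and of 0.992 over all tested genes. On the log2 scale, the paired difference was −2.30 for AQP3, −2.04 for PRSS35, −1.76 for BCL6, −1.62 for FBXO2 and −1.51 for PLAT. It was −1.30 for YPEL5, −1.24 for FAM117A and for CALB1, −1.16 for LINC02582 and −1.12 for SERPINE2. In the paired contrast, 20 genes or 0.189% of those tested were past the threshold of an adjusted p of 0.05, all lower in siMED12. The edgeR adjusted p was 0.0458 for FAM117A, the member nearest the threshold, 0.0483 for FADS2, the last gene inside it, and 0.0576 for HSPA2, TMEM158 and PTX3, the next outside it.

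With all 5 PC3 libraries and no pairing, the log2 difference of the 10 genes was −0.77 to −1.69 with a median of −0.99, against a median of −0.038 over all tested genes. That fit called 0 of 10566 genes (0%) in PC3 by the edgeR quasi-likelihood test with Benjamini-Hochberg adjustment, while 527 had an unadjusted p under 0.05, DESeq2 called 0 and limma called 1. Without siCtrl replicate 1 the differences of the 10 genes were −0.67 to 0.27 with a median of −0.17, and BCL6 at 0.27 and FBXO2 at 0.057 were on the higher side. Without the library labelled siCtrl replicate 2 they were −2.25 to −1.12. Without siCtrl replicate 1 the lowest value was the −0.67 of FAM117A, and PLAT was at −0.00084. Fewer cells with a transcript and less of it per cell cannot be told apart in these bulk libraries.

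**Figure D2:**
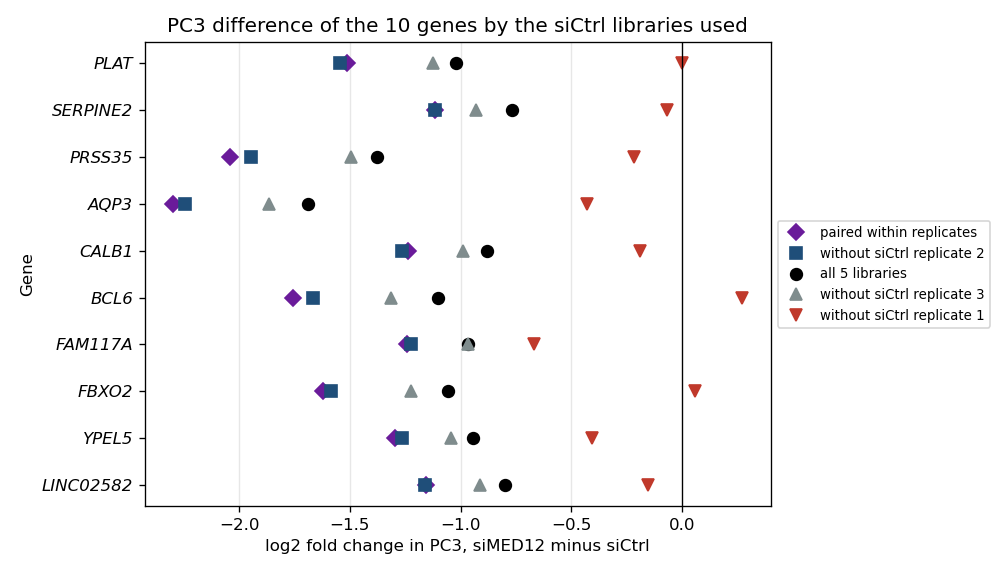
Log2 fold change of siMED12 minus siCtrl in PC3 (x axis) for each of the 10 genes (y axis), with 1 symbol for each choice of siCtrl libraries and for the paired contrast. Without siCtrl replicate 1 (red) the values lie between −0.67 and 0.27, whereas without siCtrl replicate 2 (blue) they lie between −2.25 and −1.12.

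Levels in the other lines put the genes into distinct classes. LINC02582 and PRSS35 were at or near 0 outside PC3: LINC02582 had 2, 0 and 0 counts in LNCaP siCtrl and 1, 0 and 0 counts in 22Rv1 siCtrl, and PRSS35 had 0, 1 and 0 and then 0, 0 and 2 counts. PLAT and CALB1 were low in both lines, with 2 to 5 and 1 to 4 counts of PLAT and 2 to 6 and 2 to 31 counts of CALB1 per siCtrl library. SERPINE2 and AQP3 were high in 22Rv1 and low in LNCaP. BCL6, FAM117A, FBXO2 and YPEL5 were present in all 3 lines.

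**Figure D3:**
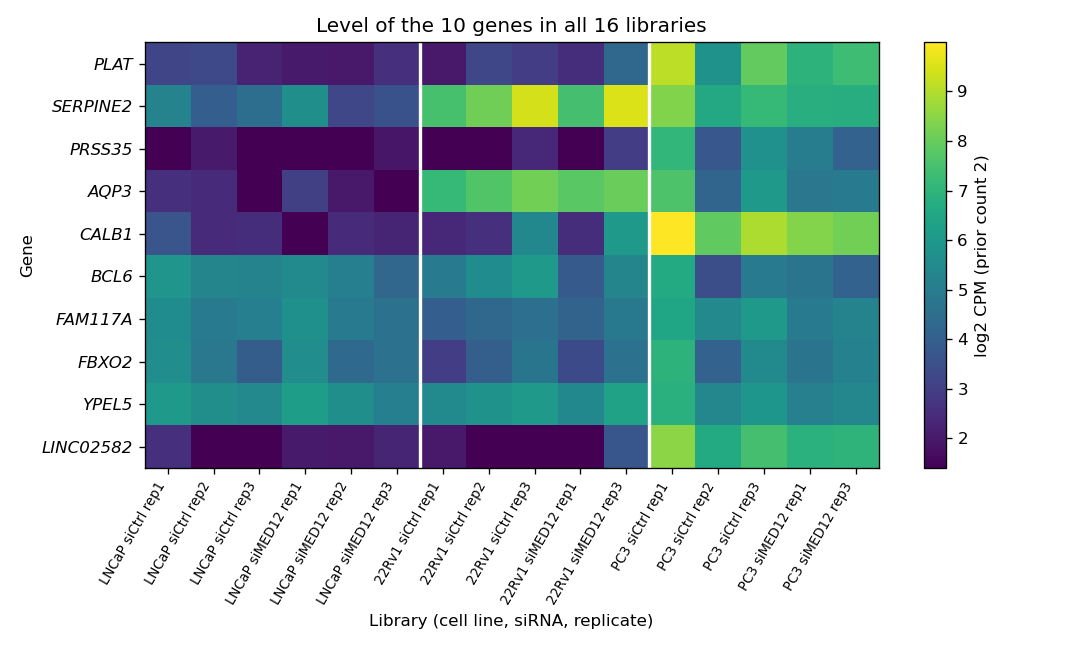
Level of the 10 genes (rows) in the 16 libraries (columns, grouped by cell line with white lines between) as log2 CPM with a prior count of 2, from dark (low) to yellow (high). SERPINE2 and AQP3 are bright in 22Rv1 and PC3, and PRSS35 and LINC02582 are dark outside PC3.

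Between the siCtrl groups of 22Rv1 and LNCaP, 3 of the 10 genes were past the threshold, 2 higher in 22Rv1 and 1 lower. Of all tested genes 43.2% were, 22% higher and 21.2% lower. AQP3 was at 139, 201 and 281 CPM in 22Rv1 siCtrl and at 3.31, 2.86 and 0 CPM in LNCaP siCtrl, a log2 difference of 6.73 ± 0.71 (SE, edgeR adjusted p = 1.38e-09). SERPINE2 was at 178, 274 and 698 CPM in 22Rv1 siCtrl and at 34.8, 12.9 and 20.1 CPM in LNCaP siCtrl, a log2 difference of 4.13 ± 0.58 (edgeR adjusted p = 7.03e-07). In both, every 22Rv1 library was above every LNCaP library. FAM117A went the other way, with 13.01, 16.7 and 20.5 CPM in 22Rv1 against 44.7, 28.6 and 31.8 CPM in LNCaP and a log2 difference of −1.03 ± 0.37 (edgeR adjusted p = 0.0230). For the other 7 genes the edgeR adjusted p was over the threshold. The interval of the log2 difference was −0.52 to 0.78 for YPEL5 and −0.81 to 1.07 for BCL6.

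The library labelled PC3 siCtrl replicate 2, which the paired contrast left out, was tested against the siCtrl groups of the other lines. The test assumes that this lone library varies like the libraries of other groups, which does not hold for these genes. Their median ratio of the highest to the lowest siCtrl library was 6.26 in PC3. It was 1.61 in LNCaP and 2.35 in 22Rv1 for the genes with over 6 counts. The SE and adjusted p below leave out the distance of this library from the other PC3 siCtrl libraries, and are too small for a statement about PC3. Against LNCaP, 7 of the 10 genes were past the threshold, 6 higher in PC3 and 1 lower, where 42.6% of all tested genes passed, 23.5% higher and 19.1% lower. Against 22Rv1, 8 passed, 5 higher in PC3 and 3 lower, where 43.4% of all tested genes did, 23.6% higher and 19.8% lower. PLAT, PRSS35 and LINC02582 passed the filter on low counts only through PC3, since 7 of the 10 genes passed it in the LNCaP and 22Rv1 libraries alone. These 3 thus had to be higher in PC3, and their calls are no support. The counts of the 10 genes above include these 3 against both lines.

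The genes higher in this PC3 library than in both lines were PLAT, PRSS35, CALB1 and LINC02582, of which only CALB1 passed the filter without PC3. PLAT had a log2 difference of 3.38 to LNCaP and of 3.60 to 22Rv1, given as a description. CALB1 had 5.54 ± 0.66 and 3.85 ± 0.55 (edgeR adjusted p = 2.45e-08 and 6.29e-07). For LINC02582, with 94 counts in this PC3 library against 2 summed counts in LNCaP and 1 in 22Rv1, the ratio was 111 with an exact 95% interval of 29.9 to 930 to LNCaP and 212 with an interval of 37.1 to 8465 to 22Rv1. For PRSS35, with 10 counts against 1 and 2, it was 23.6 with an interval of 3.36 to 1024 and 11.3 with an interval of 2.40 to 106. These exact intervals cover counting error only.

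SERPINE2 and AQP3 lay between the other lines in this PC3 library. SERPINE2 had log2 differences of 2.09 ± 0.80 to LNCaP and −2.04 ± 0.63 to 22Rv1 (edgeR adjusted p = 0.0352 and 0.00887), and AQP3 had 3.03 ± 1.07 and −3.70 ± 0.51 (edgeR adjusted p = 0.0221 and 2.86e-07). BCL6 was lower than in both lines, with log2 differences of −2.29 ± 0.73 and −2.42 ± 0.72 (edgeR adjusted p = 0.0113 and 0.00690), although its mean in PC3 siCtrl, 44.6 ± 47.2 CPM (SD, n = 3), was close to the 42.8 ± 11.7 CPM of LNCaP and the 45.5 ± 18.4 CPM of 22Rv1. FAM117A was higher than in 22Rv1 by 1.28 ± 0.42 (edgeR adjusted p = 0.0128) and passed no test against LNCaP. FBXO2 and YPEL5 passed neither test. Since the library labelled siCtrl replicate 2 had the lowest siCtrl value of all 10 genes in PC3, these differences belong to that library.

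MED12 knockdown did not move any of the 10 genes past the threshold in LNCaP or 22Rv1. In LNCaP, 44 genes (0.416%) were called and 0 of the 10, or 117 genes (1.11%) and 0 of the 10 with the replicate number as a block, and in 22Rv1 194 genes (1.84%) were called and 0 of the 10. Without a block, the edgeR adjusted p of the 10 genes was 0.882 to 1 in LNCaP and 0.542 to 0.998 in 22Rv1. In that fit 0 of the 10 had an unadjusted p under 0.05. DESeq2 and limma, also without a block, called 0 of those with over 6 counts in a siCtrl library. With the replicate number as a block, BCL6 had an unadjusted edgeR p of 0.0408 in LNCaP and 0.00505 in 22Rv1 (edgeR adjusted p = 0.491 and 0.108). The median log2 difference of the 10 genes was −0.057 in LNCaP and 0.25 in 22Rv1, against −0.0038 and 0.0061 over all tested genes, and 0.16 in 22Rv1 with transcripts of the other lines subtracted. In LNCaP 6 of the 10 had a negative value, and in 22Rv1 2 of the 10 did. The groups did not overlap for 1 of the 10 genes in LNCaP, CALB1 with at most 6 counts, against 12.6% of all tested genes, and for 0 of the 10 in 22Rv1, against 26.6%. The difference between the 22Rv1 and the LNCaP effect was past the threshold for 20 genes (0.189%) and 0 of the 10, with edgeR adjusted p of 0.831 to 1. No test was made of the PC3 effect against the others, because that effect chose the genes.

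BCL6 had the lowest value in 22Rv1 and, among the 5 genes with over 6 counts in a LNCaP siCtrl library, in LNCaP. It was at 56.3, 37.2 and 35.0 CPM in LNCaP siCtrl and at 43.4, 32.0 and 16.1 CPM in siMED12, and the groups overlapped. The log2 difference was −0.49 with a 95% interval of −1.49 to 0.52. In 22Rv1 it was at 27.3, 45.1 and 64.2 CPM in siCtrl and at 11.7 and 37.2 CPM in siMED12, with a log2 difference of −0.96, an interval of −2.11 to 0.19 and overlapping groups. Both intervals include 0 and also include a fall to 0.5 of the siCtrl level or lower. Within replicate numbers, BCL6 was lower in siMED12 in 5 of 5 pairs of LNCaP and 22Rv1 libraries, as 5.44% of all tested genes were, and it was the 1 gene of the 10 that was. With the replicate number as a block, its log2 difference was −0.53 with an interval of −1.04 to −0.023 in LNCaP and −0.92 with an interval of −1.55 to −0.30 in 22Rv1. These blocked intervals exclude 0, while the edgeR adjusted p over all genes was 0.491 and 0.108.

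YPEL5 and FAM117A had the narrowest intervals in LNCaP in the fit without a block. YPEL5 was at 61.3, 47.3 and 41.3 CPM in siCtrl and at 69.9, 48.0 and 32.2 CPM in siMED12, a log2 difference of 0.0075 with an interval of −0.65 to 0.66. In 22Rv1 its difference was 0.12 with an interval of −0.57 to 0.80. FAM117A had −0.073 with an interval of −0.71 to 0.57 in LNCaP and 0.28 with an interval of −0.62 to 1.17 in 22Rv1. For YPEL5 in both lines and FAM117A in both, the interval did not reach a log2 difference of −1. FBXO2, at 0.091 in LNCaP and −0.043 in 22Rv1, had wider intervals of −1.05 to 1.23 and −1.68 to 1.59 in that fit. With the replicate number as a block, the LNCaP intervals were narrower. They were −0.47 to 0.41 for YPEL5, −0.62 to 0.39 for FAM117A and −0.59 to 0.69 for FBXO2. None of these reached a log2 difference of −1.

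SERPINE2 and AQP3, the genes abundant in 22Rv1, were measured there with more counts. AQP3 was at 139, 201 and 281 CPM in siCtrl and at 218 and 257 CPM in siMED12, and both siMED12 libraries lay within the siCtrl range. Its log2 difference was 0.19 with an interval of −0.50 to 0.88. SERPINE2 in 22Rv1 siMED12 was at 172 and 735 CPM, on either side of its siCtrl range, with a log2 difference of 0.21 and an interval of −0.66 to 1.09. In LNCaP SERPINE2 was at 49.0, 6.67 and 9.20 CPM in siMED12, a log2 difference of −0.081 with an interval of −1.92 to 1.76. With the replicate number as a block, its LNCaP interval was −0.88 to 0.50. Its 22Rv1 interval was −0.30 to 0.35 if those libraries are also taken as paired.

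**Figure D4:**
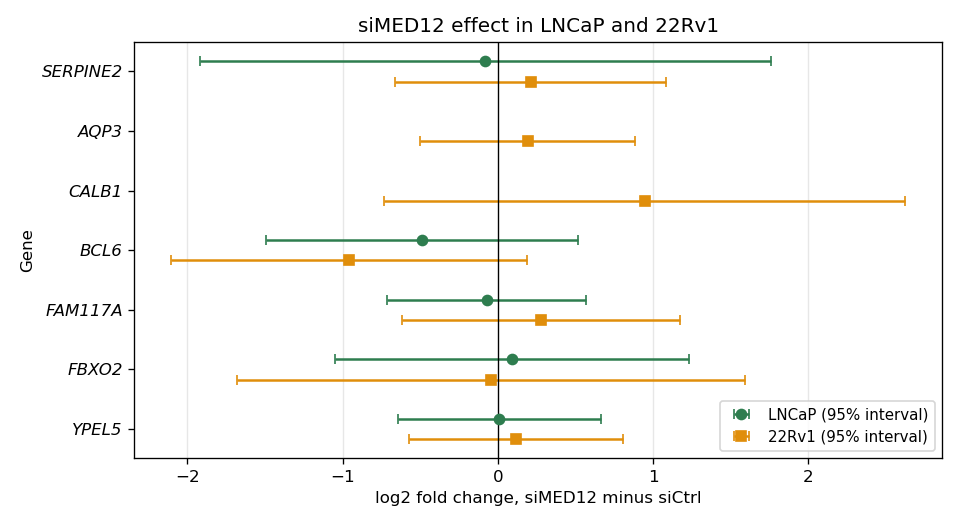
Log2 fold change of siMED12 minus siCtrl (x axis) for the genes (y axis) with over 6 counts in a siCtrl library of LNCaP (green) or 22Rv1 (orange), with bars for the 95% interval of the edgeR fit. The fit has no replicate block. All 12 intervals include 0, and BCL6 has the lowest value in both lines.

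The genes found mainly in PC3 gave few counts for a test elsewhere. CALB1 in 22Rv1 was at 2.60, 3.34 and 39.8 CPM in siCtrl and at 3.18 and 64.1 CPM in siMED12, so that replicate 3 was far above the rest in both groups. Its log2 difference of 0.95 became −2.29 without siMED12 replicate 3 and 3.34 without siCtrl replicate 3. PLAT had 1, 4 and 4 counts in 22Rv1 siCtrl and 3 and 13 counts in siMED12, and LINC02582 had 1, 0 and 0 and then 0 and 8 counts. The high counts all came from 22Rv1 siMED12 replicate 3, the library with 4.88% of the PC3 level of PC3-restricted genes. At that share and the mean PC3 siCtrl levels, 13.9 of the observed 16.7 CPM of PLAT, 10.2 of the 10.3 CPM of LINC02582, 3.16 of the 5.13 CPM of PRSS35 and 28.3 of the 64.1 CPM of CALB1 would be there. In 22Rv1 siCtrl replicate 3, with a PC3 share of 0.431%, 2.50 of the 39.8 CPM of CALB1 would be. The restricted genes were chosen for a low siCtrl level in 22Rv1, so that this share was held low and cannot decide where that CALB1 came from. The PC3 siCtrl libraries behind these means ran from 52.6 to 562 CPM for PLAT and from 98.8 to 357 CPM for LINC02582. For PRSS35 they ran from 10.5 to 133 CPM and for CALB1 from 237 to 1014 CPM. The values expected from the share therefore depend on which PC3 level is taken.

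Replicate number went with the level of these genes in the other lines too. In 22Rv1, replicate 3 was above replicate 1 in both siCtrl and siMED12 for 9 of the 10 genes, and for 27.2% of all tested genes. The 9 include PRSS35, with 0 and 2 counts in siCtrl replicates 1 and 3 and 0 and 4 in siMED12. They also include PLAT, with 1 and 4 and then 3 and 13 counts. These are too few to carry the order. Most of the PRSS35 and PLAT level in siMED12 replicate 3, and part of that of CALB1, is expected from PC3 transcripts at the share above. SERPINE2 showed the size of it, at 178 and 698 CPM in siCtrl replicates 1 and 3 and at 172 and 735 CPM in siMED12 replicates 1 and 3. In LNCaP, replicate 1 was above replicates 2 and 3 in both groups for 6 of the 10 genes, namely SERPINE2, AQP3, BCL6, FAM117A, FBXO2 and YPEL5, and for 12.7% of all tested genes. FBXO2 was at 46.4 and 46.2 CPM in LNCaP siCtrl and siMED12 replicate 1 and at 12.7 to 25.8 CPM in the other 4 libraries. AQP3 had 2, 2 and 0 and then 4, 1 and 0 counts there, too few to carry the order. The median ratio of the highest to the lowest siCtrl library was 1.61 over the 5 genes with over 6 counts in LNCaP, 2.35 over 7 genes in 22Rv1 and 6.26 over the 10 genes in PC3.

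**Figure D5:**
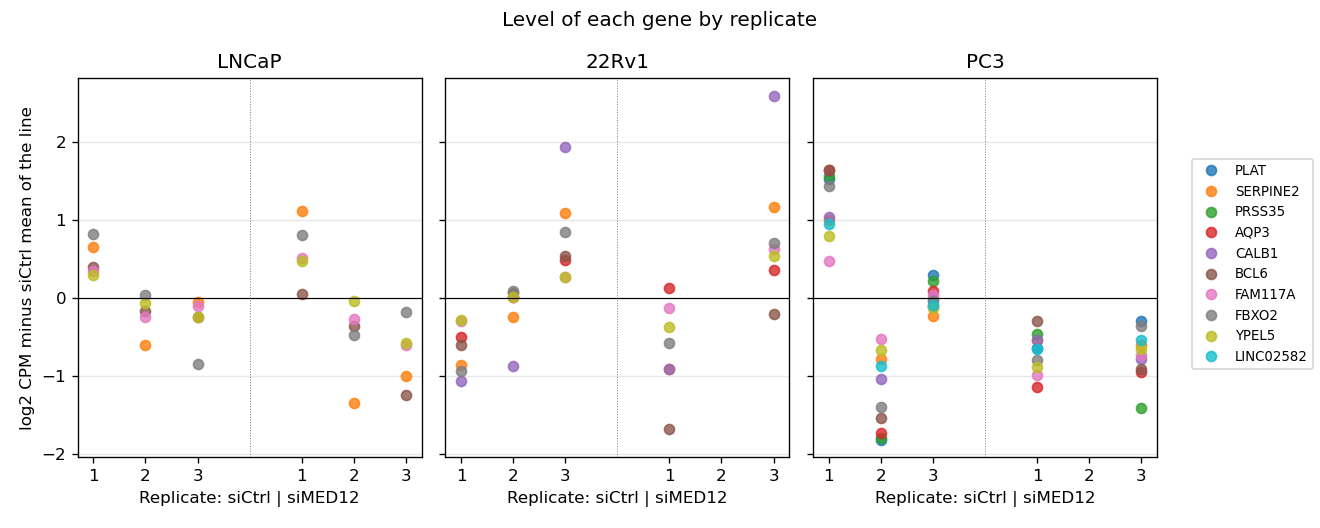
Log2 CPM of each gene minus its siCtrl mean in the line (y axis) by replicate number (x axis, siCtrl left and siMED12 right of the dotted line), in 3 panels for the lines, with 1 point per gene and library and genes with at most 6 counts in siCtrl left out. Replicate 1 is the highest in both LNCaP groups, replicate 3 in both 22Rv1 groups and replicate 1 in PC3 siCtrl.

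Other genes of the pathways to which the 10 genes belong were counted from lists. Of the plasminogen activation list, 17 of 22 genes were tested. In 22Rv1 4 of the 17 were called higher, where 1.84% of all tested genes were called. The list median in 22Rv1 was 1.03 on the log2 scale, and 0.16 with 2 calls once transcripts of the other lines were subtracted at the measured shares. S100A10, which with annexin A2 binds plasminogen at the cell surface, was at 1281, 1205 and 1306 CPM in siCtrl and 2709 and 2459 CPM in siMED12, and rose by 1.03 ± 0.12 (edgeR adjusted p = 1.87e-06). A2M, a protease inhibitor of plasma, rose by 1.54 ± 0.34 (edgeR adjusted p = 0.0158) and had 0 counts in every LNCaP and PC3 library.

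PLAU, the urokinase gene, and ANXA2 passed the threshold in 22Rv1 through siMED12 replicate 3. PLAU was at 19.5, 18.4 and 20.5 CPM in siCtrl and at 15.9 and 149 CPM in siMED12 (edgeR adjusted p = 0.0290), and ANXA2 at 0, 3.34 and 3.85 CPM and then 3.18 and 46.2 CPM (edgeR adjusted p = 0.0151). After that subtraction, the log2 difference went from 2.00 to −5.53 for PLAU and from 3.21 to −2.73 for ANXA2 (edgeR adjusted p = 0.109 and 0.662). Both signs reversed, so that the subtraction took away more than the rise. Values after it, the list median among them, depend on the share taken. S100A10 and A2M stayed past the threshold (edgeR adjusted p = 5.68e-06 and 0.0148). In LNCaP ENO1, a glycolytic enzyme that also binds plasminogen, fell by 0.66 ± 0.15 (edgeR adjusted p = 0.0400), and the list median was −0.16. In PC3 the list median was −0.12 without pairing, and PLAT and SERPINE2 were the 2 genes of the 17 in the paired calls.

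In the list of EF-hand calcium proteins, 7 of 13 genes were tested. CALM3, a calmodulin gene, rose in 22Rv1 by 0.52 ± 0.13 (edgeR adjusted p = 0.0304), 0 genes passed in LNCaP, and HPCAL1 was next to CALB1 among the paired PC3 calls at −0.76. The medians were −0.071 in LNCaP, 0.32 in 22Rv1 and −0.020 in PC3. The share of all tested genes called was 0.416% in LNCaP and 1.84% in 22Rv1. For the remaining lists, 0 genes were called in LNCaP or 22Rv1, and the gene among the paired PC3 calls was the one examined here. These were the aquaporins (1 of 14 tested), BCL6 and its corepressors (13 of 17), the SCF ligase with sugar-binding F-box proteins (11 of 12), the YPEL family with the CTLH ligase (13 of 16), the FAM117 family (3 of 3) and PRSS35 with PRSS23 (2 of 2). Their medians in LNCaP ran from −0.073 for the FAM117 family to 0.24 for AQP3 alone, and in 22Rv1 from −0.59 for the FAM117 family to 0.73 for the PRSS35 family.

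Of the luminal markers, KLK2 fell in LNCaP by 0.89 ± 0.18 (edgeR adjusted p = 0.0113). In 22Rv1 KLK4 fell by 1.10 ± 0.16 (edgeR adjusted p = 8.60e-05) and ACP3 rose by 1.88 ± 0.43 (edgeR adjusted p = 0.0114). These were 1 and 2 of 12 tested genes, where 0.416% and 1.84% of all tested genes were called, with medians of −0.063 in LNCaP and 0.053 in 22Rv1. Of the PC3 markers, 11 of 12 were tested, with medians of −0.50 in LNCaP and 1.39 in 22Rv1. With transcripts of the other lines subtracted, the 22Rv1 median was 0.27. LGALS1 was then called lower at −1.18 (edgeR adjusted p = 0.0385), where it had −0.32 without subtraction (edgeR adjusted p = 0.743). That subtraction reversed the sign of PLAU and ANXA2, so that this median and the LGALS1 call depend on the share taken. CAV1 and AKR1C3 rose in 22Rv1 by 1.64 ± 0.31 and 3.18 ± 0.44 (edgeR adjusted p = 0.00206 and 4.07e-05). AKR1C3 had at most 1 count in any PC3 library, so that it did not mark PC3 here.

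The genes most like the 10 over the 16 libraries, by Pearson correlation with the mean of their standardised log2 CPM, were MRPS6 at 0.935, ENSG00000286966 at 0.934, CCL26 at 0.926, S100A4 at 0.912 and SYT12 at 0.911. MRPS6, ENSG00000286966 and S100A4 were also among the 20 paired PC3 calls, which were 0.189% of all tested genes. The 10 genes came from those same calls, so that the choice favoured this overlap and it is no result. Each of the 10 genes correlated with that mean, of which it is part, by 0.429 for BCL6 to 0.884 for PRSS35. These 16 points share 3 cell lines and are given as a description.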

How the data were processed

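Spheroids of 3 cell lines were profiled in 16 BRB-seq libraries. The deposited raw counts were made by the authors with STARsolo on GRCh38.p13, and whether molecular identifiers were collapsed is not given in the sources used here. The authors also deposited log2 CPM values, made with edgeR; they were recomputed from the counts to within 5e-14. Libraries held 479118 to 993807 counts, so a count of 0 allows up to 3 counts, or 3.15 to 6.22 CPM. No library duplicated another of its group (variance 1.60 to 3.43 times that of resampling).

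Counts were tested in R 4.3.3 with the edgeR 4.0.16 quasi-likelihood test, TMM scaling and 1 mean per group, after a filter on a minimum count of 10 and a total of 15, which kept 10566 genes. In the comparisons with the library labelled PC3 siCtrl replicate 2, that library had a mean of its own. P-values are 2-sided and adjusted over all tested genes by Benjamini-Hochberg, with a threshold of 0.05. CPM are TMM-scaled, SE is the log2 fold change over the root of its F statistic, and intervals are 95%. Alternatives were another scaling (RLE), all genes with a count, DESeq2 1.42.0, limma 3.58.1 on the deposited log2 CPM, a replicate block, subtraction of counts carried over between lines, leaving out each library, and, chosen after seeing the data, the legacy edgeR fit. The scripts were tested on simulated data.

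The shares of carried-over transcripts rest on 7 genes restricted to PC3, 2 to 22Rv1 and 1 to LNCaP, at over 100 CPM in their line and at most 1 CPM in the others. Same-numbered LNCaP libraries deviated together over 6720 genes (correlations 0.177, 0.132 and 0.135, all over 0.1). The numbers were therefore taken to pair the LNCaP libraries, which no label states. The 22Rv1 correlations of 0.19 and 0.253 were higher. They come from 2 siMED12 libraries whose deviations mirror each other and were not taken as pairing. Coordinates are from GENCODE release 44. The genes and lists were chosen with earlier results of these data known. Named besides the 10 genes and MED12 are list genes past the threshold in LNCaP, 22Rv1 or the paired PC3 contrast, the genes next to the threshold, and the 5 genes most like the 10. PTX3, with the same adjusted p as the genes next to the threshold, and LGALS1 were named after their values were seen.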

Additional observations from a re-analysis of the deposited data

How the results depend on the processing

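The 0 calls among the 10 genes in LNCaP and 22Rv1 held under every alternative run for the 5 and 7 genes with over 6 counts in siCtrl, with lowest adjusted p of 0.491 and 0.108, both with the replicate block. Of 4564, 4504 and 4583 calls between lines, all alternatives stayed within 1.5 times. The siMED12 calls moved. With every gene tested, calls were 95 instead of 44 in LNCaP, 9 instead of 0 in PC3 and 68 instead of 20 for the 22Rv1 minus LNCaP difference. DESeq2 gave 23 in LNCaP and 87 instead of 194 in 22Rv1, and limma gave 29 in LNCaP, 1 in PC3 and 13 for the difference. Subtraction of carried-over counts gave 10 for the difference. Leaving out 1 library gave 12 to 55 calls in LNCaP, 74 to 157 in 22Rv1, 0 to 3 in PC3 and 1 to 17 for the difference; the lowest were without LNCaP siMED12 replicate 2, 22Rv1 siMED12 replicate 1 and LNCaP siCtrl replicate 3, and the 3 PC3 calls were without siCtrl replicate 2. The causes were not tested.

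The replicate block gave 117 calls in LNCaP, 312 in 22Rv1, 20 in PC3 and 71 for the difference. In 22Rv1 and PC3, which have 2 pairs each, deviations of same-numbered libraries correlated by 0.0787 to 0.253. Every siMED12 library correlated best with its own number, a hint from the data and not from the design. With 2 siMED12 libraries in a line, their deviations from the group mean mirror each other, so that the 2 results are not separate evidence. There the libraries were treated as sharing only a number.

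Values near 0 changed sign. FBXO2 in 22Rv1 became 0.023 with DESeq2, 0.062 with limma and 0.0010 with the block, and YPEL5 in LNCaP became −0.0013 with every gene tested, −0.044 with limma and −0.031 with the block. Leaving out 1 library gave, in 22Rv1, −0.039 to 0.49 for AQP3, −2.29 to 3.34 for CALB1, −0.17 to 0.66 for FAM117A, −0.94 to 0.65 for FBXO2, −1.17 to 0.99 for SERPINE2 and −0.41 to 0.53 for YPEL5. In LNCaP it gave −0.46 to 0.18 for FAM117A, −0.39 to 0.62 for FBXO2, −1.42 to 0.33 for SERPINE2 and −0.29 to 0.27 for YPEL5. In PC3, leaving out 1 library gave −1.67 to 0.27 for BCL6 and −1.58 to 0.057 for FBXO2.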
